A study of Homo sapiens with 13 samples.

Results

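Nuclear hormone receptors are transcription factors that carry a zinc-finger DNA-binding domain and a ligand-binding domain. Many are switched by a small lipid-soluble ligand (a steroid, thyroid hormone, retinoic acid, an oxysterol or a fatty acid), some have no known physiological ligand and are called orphans, and a large group binds DNA as a dimer with a retinoid X receptor (RXR). Without ligand several of them hold corepressors at their target genes, and ligand exchanges these for coactivators, among which chromatin remodelers of the BAF complex, driven by the ATPases SMARCA4 and SMARCA2, are known partners. Expression of 46 receptor genes of 19 subfamilies was examined here, chosen by gene symbol among the 56831 genes listed in each of the transcript tables. All 46 symbols were found in the tables of both cell lines.

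H82 and H146 are established human small cell lung cancer (SCLC) lines, labelled wild type in every group, and grown in medium with fetal bovine serum. The study asked what inhibition of SMARCA4/2 does to the neuroendocrine phenotype of SCLC, and compared cells given 100 nM FHD-286, a small-molecule inhibitor of both ATPases, for 14 days with untreated cells of the same line. RNA-seq values were deposited for 3 untreated and 3 treated H82 libraries and for 3 untreated and 4 treated H146 libraries. All values are in TPM, a transcript abundance that corrects for length and sums to 1000000 in each library, so levels below can be compared between genes while the sequencing depth behind them is unknown. Each line is a single cell line, no vehicle group is labelled, and nothing says whether replicates were separate cultures, so p-values measure the spread between these libraries, which may be technical.

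The neuroendocrine markers *SYP*, *CHGA* and *NCAM1* were present in every library. *SYP* was 193 to 212 TPM in untreated and 31.5 to 58.1 TPM in treated H82, and 78.2 to 93.3 and 62.7 to 85.9 TPM in untreated and treated H146. *NEUROD1* was 224 to 234 TPM in untreated and 48 to 112 TPM in treated H82, and at most 0.521 TPM in H146. *INSM1* went the other way in H82, from 12.5 to 15.8 TPM in untreated libraries to 32.1, 296 and 33.9 TPM in treated replicates 1, 2 and 3, and *NCAM1* was 51.8 to 53.7 and 52.5 to 71.1 TPM. The neuroendocrine sum of treated replicate 2 (486 TPM) lay above every untreated H82 library (376 to 436 TPM). *CD3E* was at 0 in every H82 library, and *CD68* stayed at or below 0.201 TPM in all 13 libraries. The summed immune markers (*PTPRC*, *CD68* and *CD3E*) were at most 0.495 TPM in H82. In H146 this sum was 4.49 to 6.23 TPM in untreated and 3.37 to 6.97 TPM in treated libraries, and *CD3E* was at most 0.102 TPM. In H82 the summed epithelial markers were 1.49 to 3.16 TPM in untreated and 8.02 to 63.4 TPM in treated libraries, and the summed fibroblast markers 1.7 to 2.5 and 7.92 to 33.3 TPM. In H146 these sums were 1353 to 1377 and 522 to 589 TPM, and 6.52 to 8.64 and 12.6 to 19.6 TPM. Their part in the receptor results was not tested. The H82 treated replicate 2 stood apart. A set of 41 genes with at least 20 TPM in every H146 library and at most 0.05 TPM in untreated H82 summed to 0.0603 to 0.157 TPM in untreated H82, and to 27.9, 130 and 10.1 TPM in treated H82 replicates 1, 2 and 3, which is 0.751%, 3.52% and 0.272% of the untreated H146 mean. Of these 41 genes, 2 to 4 were above 0 TPM in untreated H82, and 29, 30 and 25 in treated replicates 1, 2 and 3. The rest of the set was at 0, and the source of these values was not tested. Because treated replicate 2 stood apart, the receptor counts in H82 are given with and without it. In bulk RNA, fewer cells that express a gene and less of its RNA per cell cannot be told apart.

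In untreated H82, 28 to 29 of the 46 receptors reached 1 TPM in each library, and their summed level was 535 to 562 TPM. *NR2F6*, *NR1D2*, *RXRG*, *RXRB* and *NR2C2* were the 5 most abundant in all 3 libraries and held 46.7% to 48.6% of that sum. In untreated H146 the sum was 972 to 1250 TPM, and the COUP transcription factor gene *NR2F1* alone held 38.4% to 47.6% of it, with *ESRRA* second and *NR1D1*, *RXRB* and *NR1D2* next. After treatment the sum was 457 to 654 TPM in H82, overlapping the untreated range, and 1176 to 1269 TPM in H146, also overlapping. In treated H82, *NR2F6* led in replicate 1, followed by *RXRB* and *RXRG*, and *RXRG* led in replicates 2 and 3, followed by *NR2F6*. *NR1D2* and *NR2C2* no longer ranked among the first 5 of any treated H82 library, while *NR2F1* remained first in every treated H146 library.

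**Figure D1:**
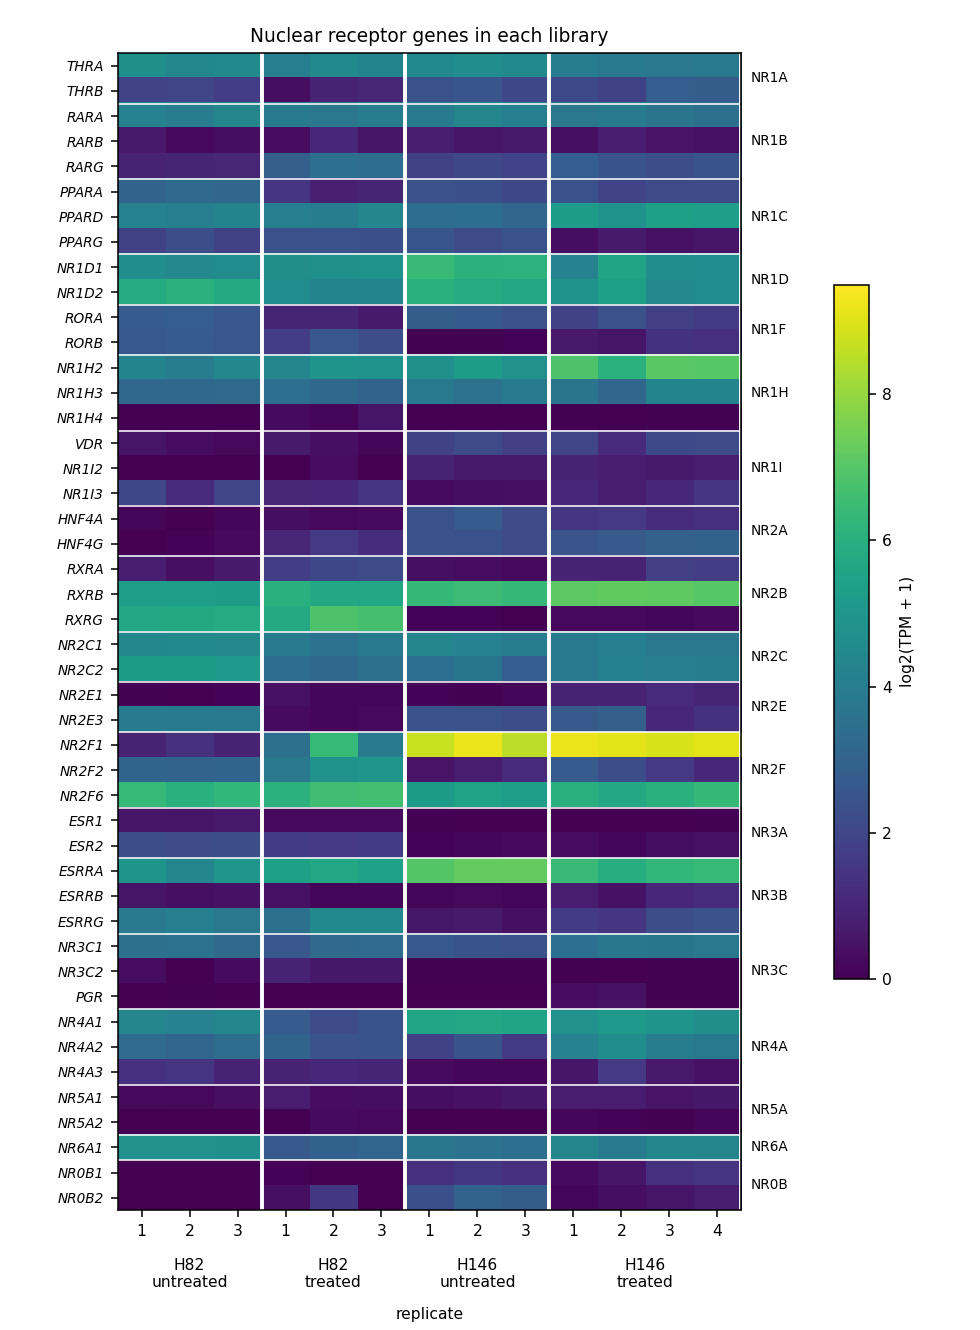
Heat map of log2(TPM + 1) (color scale) for the 46 receptor genes (rows, by subfamily on the right) in the 13 libraries (columns, grouped by line and treatment). *NR2F1* stands out in every H146 library at 373 to 603 TPM, and *NR2E3* is near 0 in the treated H82 libraries.

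A gene was tested when 3 or more libraries of a line reached 1 TPM, with limma on log2(TPM + 1), with Benjamini-Hochberg adjustment over all genes of the line. Of the 32 receptors tested in H82, 10 fell, 7 rose and 15 did not pass an adjusted p of 0.05. Among all genes tested in H82, 45.5% fell and 13.1% rose, and the median log2 fold change was -0.27 over the receptors and -0.56 over all genes. Of the 31 receptors tested in H146, 9 fell, 12 rose and 10 did not pass, where 15.5% of all genes fell and 32.5% rose. The median log2 fold change in H146 was 0.06 over the receptors and 0.25 over all genes. The receptors thus did not share a direction in either line. In H82, genes at 1 TPM or more numbered 21227 to 21772 in untreated and 15554 to 16633 in treated libraries, and the mitochondrial share of TPM was 22.1% to 24.1% and 12.3% to 14.9%. In H146 these were 17476 to 17965 and 18778 to 19309 genes, and 7.56% to 8.86% and 3.82% to 11.4%. Their part in the receptor results was not tested. In each line 4 receptors passed the filter through 1 group alone, *HNF4G* and *RXRA* (treated) and *RORA* and *NR2E3* (untreated) in H82, and *NR1I3* and *ESRRG* (treated) and *PPARG* and *NR0B2* (untreated) in H146. These genes were tested because they were high in that group, so their passing adds nothing to the counts as support.

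The split between falls and rises depended on how the libraries were scaled. With median-of-ratios scaling of the TPM values, the median over all genes was -0.31 in H82 (TPM scale -0.56) and 0.04 in H146 (TPM scale 0.25). In H82, 8 receptors then fell and 11 rose (38% and 19.5% of all genes), and in H146, 11 fell and 9 rose (22.5% and 24% of all genes). The median over the receptors became -0.02 in H82 and -0.16 in H146, which in H146 is a change of sign. Without H82 treated replicate 2, 9 of 29 tested receptors fell and 5 rose (42.6% and 9.03% of all genes). A gene that is under 1 TPM in the untreated libraries cannot pass the expression filter in that smaller fit, which removed *HNF4G* and *RXRA*, and *NR4A3*, near 1 TPM in both groups, also dropped out.

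**Figure D2:**
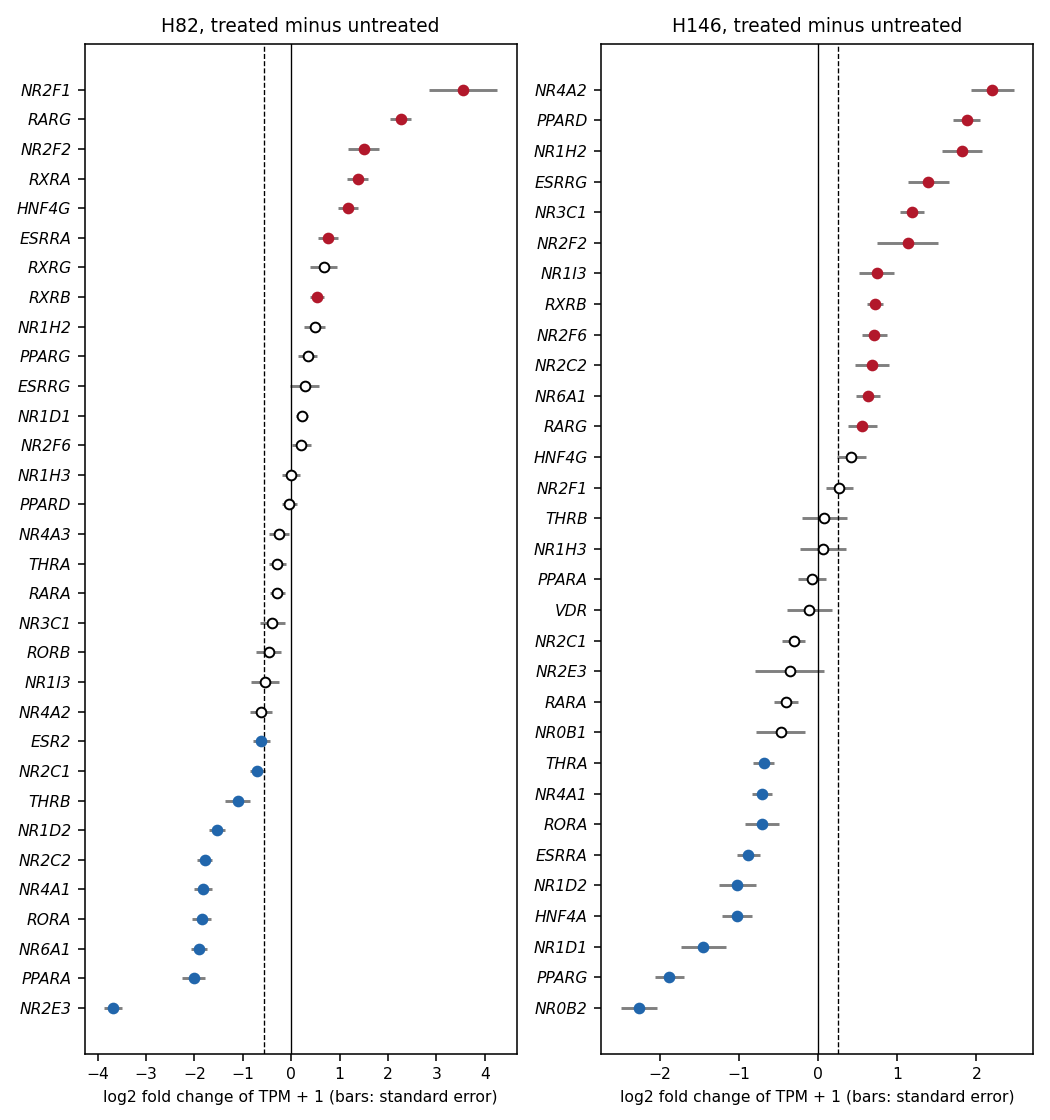
Log2 fold change of TPM + 1 (treated minus untreated, horizontal axis; bars, standard error) of the 32 receptors tested in H82 and the 31 tested in H146. Blue and red points passed an adjusted p of 0.05 as lower and higher, open points did not, and the dashed line is the median of all genes tested (-0.56 in H82, 0.25 in H146), which median-of-ratios scaling moved to -0.31 and 0.04. The points run from *NR2E3* (-3.68) to *NR2F1* (3.55) in H82 and from *NR0B2* (-2.26) to *NR4A2* (2.20) in H146.

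The RXRs, the common dimer partners, rose in part. *RXRB* was 36.3 to 39.4 TPM in untreated and 51.4 to 63.8 TPM in treated H82, and 79.7 to 90.2 and 130 to 145 TPM in H146, with no overlap in either line. Its log2 fold change was 0.53 ± 0.14 (SE, limma adjusted p = 0.0156) in H82 and 0.72 ± 0.10 (limma adjusted p = 0.000886) in H146. The call in H82 was lost without any 1 of the untreated replicates (limma adjusted p of 0.0563 to 0.0971). *RXRB* lies antisense to the zinc transporter gene *SLC39A7*, whose log2 fold changes of 0.31 and 0.28 did not pass. Whether counting used strand is not given in the sources used here, so reads of overlapping genes on opposite strands may not be separated.

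*RXRA* measured 0.745, 0.312 and 0.606 TPM in untreated H82 and 2.33, 3.17 and 3.56 TPM in treated H82. All treated libraries lay above all untreated ones, and the gene passed the filter through them alone, with a log2 fold change of 1.37 ± 0.22 (SE, limma adjusted p = 0.00189). In H146 *RXRA* was below the expression filter, at 0.17 to 0.321 TPM untreated and 0.924, 0.886, 2.52 and 2.29 TPM treated, with replicates 3 and 4 above 1 and 2. *RXRG*, the most restricted of the 3 RXRs in normal tissues, was 52.5 to 56.6 TPM in untreated H82 and 54.3, 115 and 104 TPM after treatment, where replicate 1 overlapped the untreated range (log2 fold change 0.67, limma adjusted p = 0.0753, or 0.95 and 0.0101 with median-of-ratios scaling). In H146 *RXRG* did not exceed 0.186 TPM in any library.

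Among the retinoic acid receptors, *RARG* rose in both lines. In H82 it measured 0.935, 0.961 and 1.04 TPM untreated and 6.34, 9.96 and 9.63 TPM treated (log2 fold change 2.26 ± 0.22, SE, limma adjusted p = 0.00033). No treated library came near the untreated range. Its H146 level was 2.86 ± 0.265 (SD, n = 3) untreated and 4.75 ± 0.948 TPM (SD, n = 4) treated, a log2 fold change of 0.56 that was smaller than in H82 by 1.70 ± 0.27 (SE, limma adjusted p = 0.000194). The call in H146 was lost without treated replicate 1 or 4 or any 1 of the untreated replicates, and with median-of-ratios scaling (0.37, limma adjusted p = 0.129). *RARA* averaged 17.2 and 13.9 TPM in untreated and treated H82 and 16.6 and 12.2 TPM in H146, and passed in neither line (with median-of-ratios scaling it passed in H146, at -0.64, limma adjusted p = 0.0135). *RARB*, known as a direct retinoic acid target, stayed below the filter in both lines, at means of 0.329 and 0.624 TPM in H82 and 0.606 and 0.444 TPM in H146, with overlapping groups.

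A retinoic acid response element of the direct-repeat type DR5 was found by letters, on both strands, in the promoter window (250 bases before to 50 after the start; RefSeq, GRCh38.p14) of *RARB* and in no other of the 41 receptor genes that had a promoter entry. Over all 35116 promoters in the table, 31 (0.0883%) held it. The retinoic acid-degrading enzyme gene *CYP26A1*, which belongs to the retinoid list below and not to the receptors, was also among these. Both stretches are shown because these 2 genes differed in response, with the repeated receptor sites in capitals.
RARB (chr3:25428204-25428232, plus strand): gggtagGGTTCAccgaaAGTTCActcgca
CYP26A1 (chr10:93073797-93073825, plus strand, element on the minus strand): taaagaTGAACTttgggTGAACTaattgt
The *RARB* element ends 37 bases and the *CYP26A1* element 74 bases before the start of the RefSeq promoter entry that holds it. Both windows lie inside the GENCODE span of their gene, so neither start is the outermost one. *CYP26A1* measured 0.714, 1.19 and 0.999 TPM in untreated H146 and 20.3, 12.3, 28.1 and 30 TPM in treated H146. That is a log2 fold change of 3.52 ± 0.29 (SE, limma adjusted p = 6.93e-05), and every treated library was above every untreated one. In H82 it did not exceed 0.413 TPM. A letter match is a description of the window and not evidence of binding.

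Of 19 retinoid pathway genes, 13 were tested in H146, where 3 fell, 4 rose and the median was 0.25, equal to that of all genes (15.5% fell and 32.5% rose). *CYP26A1* had the largest rise. Among the falls was the retinol transporter *STRA6* (19.3 to 9.18 TPM, log2 fold change -1.02). In H82, 10 were tested, 4 fell, 3 rose and the median was -0.50 (45.5% of all genes fell and 13.1% rose). The cytosolic retinoic acid carrier *CRABP2* fell from 789 ± 63.0 to 172 ± 55.7 TPM (SD, n = 3, log2 fold change -2.24), and *RARRES1*, a tazarotene-induced gene, fell from 2.96 to 0.0927 TPM (-1.82). *DHRS3*, which returns retinaldehyde to retinol, rose from 0.348 ± 0.217 to 7.14 ± 2.06 TPM (2.57). *ALDH1A1*, which makes retinoic acid from retinaldehyde, was at most 0.091 TPM in untreated and 14.9, 35.9 and 4.88 TPM in treated H82 (3.88), against 398 to 437 TPM in untreated H146. Its highest treated value was in replicate 2, the library with the highest sum of H146 genes. Their part in the *ALDH1A1* result was not tested. Without that library 8 of the list were tested, 5 fell and none rose (limma, adjusted p under 0.05, with 1 higher at an unadjusted p under 0.05), since *DHRS3* and *ALDH1A1* no longer passed the filter and *RDH10* no longer passed the test (0.53, limma adjusted p = 0.0765).

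The thyroid hormone receptor *THRB* fell in H82 from 2.85, 2.98 and 2.31 TPM to 0.272, 0.949 and 1.05 TPM (log2 fold change -1.11 ± 0.25, SE, limma adjusted p = 0.00725). The groups did not overlap, but the call was lost without untreated replicate 1 or 2 (limma adjusted p = 0.06 and 0.0558), and quantile normalization left 0.02. In H146 *THRB* averaged 4.06 and 4.55 TPM and did not pass. *THRA*, the other thyroid hormone receptor, averaged 23 and 18.7 TPM in H82 and did not pass, and in H146 fell from 22.5 ± 1.41 (SD, n = 3) to 13.6 ± 1.1 TPM (SD, n = 4, log2 fold change -0.69, limma adjusted p = 0.00284). *THRA* overlaps *NR1D1* on the opposite strand, and *NR1D1* also fell in H146. The vitamin D receptor gene *VDR* was tested in H146 alone, at 2.91 and 2.75 TPM, and the xenobiotic receptor *NR1I2* (PXR) stayed below the filter in both lines. *NR1I3* (CAR), a second xenobiotic receptor, averaged 2.43 and 1.28 TPM in H82 without passing and 0.271 and 1.16 TPM in H146, a rise of 0.74 on the log2 scale (limma adjusted p = 0.0216) that was lost without any 1 of the untreated replicates, for a gene that passed the filter through treated libraries alone. Its antisense neighbor *TOMM40L* rose in H146 from 3.72 to 21.5 TPM (2.20), and its part in the *NR1I3* value was not tested.

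The 3 peroxisome proliferator-activated receptors, fatty acid sensors that govern fat oxidation and fat storage, each changed differently. *PPARA*, the receptor of fasting fat oxidation, measured 7.12, 8.40 and 7.81 TPM in untreated H82 and 1.87, 0.787 and 0.965 TPM in treated H82 (log2 fold change -2.02 ± 0.24, SE, limma adjusted p = 0.00059). The groups were well apart. In H146 it averaged 3.77 and 3.52 TPM and did not pass, and H146 minus H82 gave 1.94 ± 0.28 (limma adjusted p = 9.42e-05). *PPARD* measured 9.57, 9.69 and 7.82 TPM in untreated H146 and 35.9, 27.5, 41.3 and 39.6 TPM in treated H146 (1.88 ± 0.17, limma adjusted p = 0.0001). The lowest treated library was still far above the highest untreated one, while in H82 *PPARD* averaged 17.3 and 16.9 TPM. *PPARG*, the adipocyte receptor, went the other way in H146, from 4.87, 3.64 and 4.24 TPM to 0.291, 0.611, 0.355 and 0.441 TPM (-1.88 ± 0.18, limma adjusted p = 0.000124). In H82 its means were 3.04 and 4.08 TPM, which did not pass, and the lines differed by -2.22 ± 0.24 (limma adjusted p = 1.31e-05).

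Of 14 PPAR target genes, 13 were tested in H82, with 4 higher, 2 lower and a median of 0.34 (13.1% of all genes rose and 45.5% fell), on the other side of 0 from the median of all genes. *CPT1A*, which brings fatty acids to mitochondrial oxidation, rose from 4.75 to 21.6 TPM (log2 fold change 1.95). The fatty acid carrier *FABP3* was among the falls (18.4 to 6.63 TPM, -1.49). Without treated replicate 2, 11 were tested, with 2 higher and 2 lower. The fatty acid transporter *CD36* was among those that no longer passed the filter. In H146, 11 were tested, 4 rose and 2 fell, with a median of 0.16 (32.5% of all genes rose and 15.5% fell). There *CD36* (2.18 to 6.24 TPM, 1.15) and *FABP3* (3.41 to 6.17 TPM, 0.70) led the rises, and *PDK4*, the kinase that shuts off pyruvate oxidation, (21.2 to 6.08 TPM, -1.74) and *CPT1A* (53.0 to 36.6 TPM, -0.54) fell. *CPT1A* and *FABP3* thus passed in both lines with opposite signs. With median-of-ratios scaling the H146 median was -0.09, with 2 higher and 3 lower.

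The hepatocyte nuclear factors of this family differed by line. *HNF4G* was 0, 0.054 and 0.17 TPM in untreated H82 and 1.02, 1.96 and 1.35 TPM in treated H82 (log2 fold change 1.17 ± 0.21, SE, limma adjusted p = 0.00297). All treated values were higher, near the filter of 1 TPM, and the call was lost without untreated replicate 1 (limma adjusted p = 0.0561). In H146 *HNF4G* averaged 4.05 and 5.81 TPM and did not pass. *HNF4A* fell in H146, from 4.17, 5.64 and 3.52 TPM to 1.83, 1.98, 1.32 and 1.52 TPM (-1.02 ± 0.19, limma adjusted p = 0.00352), without overlap, and in H82 it stayed at or below 0.278 TPM.

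The liver X receptors, sensors of oxysterols, differed between paralogs. *NR1H2* (LXR beta) measured 26.1, 36.7 and 27.2 TPM in untreated H146 and 114, 66.7, 134 and 131 TPM in treated H146 (log2 fold change 1.82 ± 0.25, SE, limma adjusted p = 0.000744). Replicate 2 was the lowest treated library and remained above all untreated ones. The gene overlaps the antisense gene *NAPSA*, which was at 1.96 and 2.31 TPM in H146. Its part in the *NR1H2* value was not tested. In H82 *NR1H2* averaged 17.9 and 25.6 TPM with overlapping groups (0.48, limma adjusted p = 0.105, or 0.75 and 0.0116 with median-of-ratios scaling), and the lines differed by 1.35 ± 0.36 (limma adjusted p = 0.00643). *NR1H3* (LXR alpha) averaged 8.39 and 8.44 TPM in H82 and 12.7 and 14.0 TPM in H146 and passed in neither. Its antisense neighbor *ACP2* rose in H146 from 7.4 to 20.5 TPM (1.27, limma adjusted p = 0.00936) and did not pass in H82 (0.17). The part of *ACP2* in the *NR1H3* value was not tested. The bile acid receptor *NR1H4* (FXR) was at 0 in all untreated libraries and did not exceed 0.442 TPM in any treated one.

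Of 9 LXR target genes, 7 were tested in H146, where 4 fell, 1 rose and the median was -0.71 (all genes, 15.5% fell, 32.5% rose, median 0.25). The falls were led by the cholesterol exporter *ABCG1*, from 10.5 ± 0.627 (SD, n = 3) to 1.95 ± 1.14 TPM (SD, n = 4, log2 fold change -2.04), and *SREBF1*, the activator of fatty acid synthesis genes, from 53.7 to 17.2 TPM (-1.59). *SMPDL3A*, a phosphodiesterase gene, rose from 47.9 to 84.4 TPM (0.80). In H82, 6 were tested, 4 fell and none rose (limma, 0 higher also at an unadjusted p under 0.05), with a median of -0.65, near the -0.56 of all genes, of which 45.5% fell. The falls were led by the desaturase *SCD* (529 to 207 TPM, -1.61) and *LPCAT3* (8.97 to 5.10 TPM, -0.74). With median-of-ratios scaling 1 of the 6 fell in H82. In H146 *NR1H2* thus rose while 4 of the 7 tested targets fell.

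**Figure D3:**
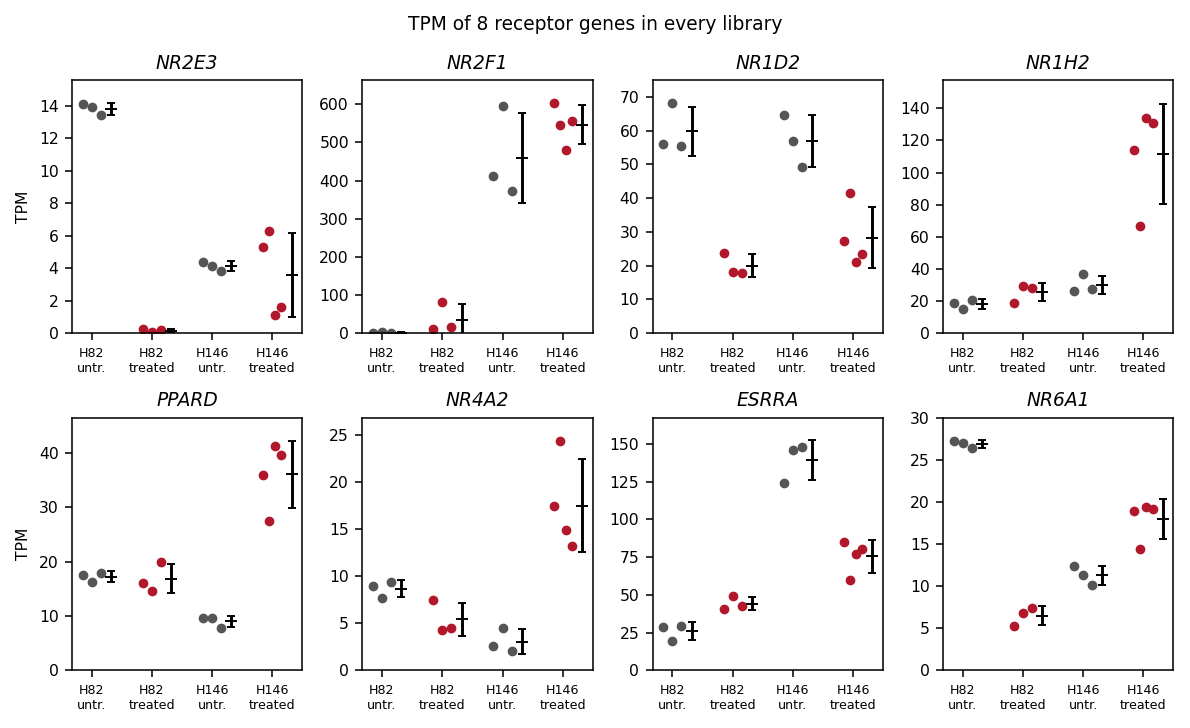
TPM (vertical axis, starting at 0) of 8 receptor genes in every library of the 4 groups (gray, untreated; red, treated; horizontal dash and bar, mean and SD). *NR2E3* falls to 0.0856 to 0.221 TPM in treated H82, *NR1H2*, *PPARD* and *NR4A2* separate in H146, and *NR2F1* in treated H82 has 1 library at 81.2 TPM.

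Among the REV-ERBs and RORs, which repress and activate the same sites in the circadian clock, *NR1D2* and *RORA* fell in both lines. *NR1D2* (REV-ERB beta) measured 55.9, 68.1 and 55.3 TPM in untreated H82 and 23.8, 18.1 and 17.9 TPM in treated H82 (log2 fold change -1.54 ± 0.17, SE, limma adjusted p = 0.000461). In H146 it measured 64.6, 57.0 and 49.2 TPM untreated and 27.4, 41.4, 21 and 23.3 TPM treated (-1.02 ± 0.23, limma adjusted p = 0.00661). Neither line had overlapping groups, and the lines could not be told apart by the test (0.52 ± 0.30, limma adjusted p = 0.158). *NR1D1* (REV-ERB alpha) fell in H146 alone, from 82.9, 67.8 and 69.2 TPM to 17.4, 45.3, 24.5 and 23.4 TPM (-1.45 ± 0.28, limma adjusted p = 0.00359), where replicate 2 was again the highest treated library. In H82 its means were 22.7 and 26.6 TPM, which did not pass on the TPM scale and passed as higher with median-of-ratios scaling (0.50, limma adjusted p = 0.0101). *RORA* fell in H82 from 5.85, 6.21 and 4.96 TPM to 0.975, 0.961 and 0.629 TPM (-1.85 ± 0.20, limma adjusted p = 0.000417) and, by less, in H146 from 5.15 to 2.80 TPM (-0.71, limma adjusted p = 0.0271, lost without treated replicate 1, 3 or 4 or untreated replicate 1 or 2). *RORB* averaged 5.29 and 3.69 TPM in H82 and did not pass, and in H146 went from at most 0.0728 TPM to 0.455 to 1.63 TPM.

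*NR1D2* lies at chr3:23945286-23980617 on the plus strand (hg38). Its promoter holds both letter motifs known from clock control, the E-box CACGTG, bound by CLOCK and its partner ARNTL, and the D-box TTATGTAA, bound by DBP, TEF and NFIL3. The stretches are shown because this receptor fell in both lines and holds both motifs, which are in capitals.
NR1D2 E-box (chr3:23945954-23945983, plus strand): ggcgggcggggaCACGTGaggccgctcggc
NR1D2 D-box (chr3:23945916-23945945, plus strand, motif on the minus strand): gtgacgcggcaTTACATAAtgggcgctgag
The E-box shown ends 150 bases and the D-box 187 bases before the start. A second CACGTG in the same window is centered at -102 from the start, where the one shown is at -152. CACGTG was present in 9 of 96 receptor promoters (9.38%, from 7 of the 41 genes) against 7.26% of all promoters, and TTATGTAA in 2 (2.08%) against 0.886%. The core receptor site AGGTCA was present in 16 (16.7%, from 11 genes) against 13.8%. The shares are counts with no test, and some genes have several overlapping promoter entries.

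Of 16 clock genes, 14 were tested in each line. In H82, 7 fell, 3 rose and the median was -0.52, near that of all genes (45.5% fell and 13.1% rose). *CLOCK* (11.4 to 3.11 TPM, log2 fold change -1.61) and *PER2* (14.1 to 4.86 TPM, -1.41) had the largest falls, and *BHLHE41* (1.65 to 7.28 TPM, 1.56) and *DBP* (5.69 to 13.2 TPM, 1.13) the largest rises. In H146, 6 fell, 2 rose and the median was -0.46, against 0.25 for all genes (15.5% fell and 32.5% rose). *NFIL3* fell from 84.0 ± 10.1 (SD, n = 3) to 17.8 ± 7.80 TPM (SD, n = 4, -2.25) and *ARNTL*, the partner of CLOCK and a known REV-ERB target, from 10.8 ± 1.09 to 3.78 ± 0.418 TPM (-1.30). *CLOCK* rose in H146 from 5.39 to 8.40 TPM (0.57) and *CRY1* from 26.4 to 34.1 TPM (0.36), and neither rise passed with median-of-ratios scaling, where 7 of the list fell and none rose (limma, adjusted p under 0.05, with 1 higher at an unadjusted p under 0.05).

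The orphan receptors held the largest changes in H82. *NR2E3* (PNR, chr15:71792638-71818259, plus strand), known from photoreceptor differentiation, measured 14.1, 13.9 and 13.4 TPM in untreated H82 and 0.221, 0.0856 and 0.157 TPM in treated H82. Its log2 fold change of -3.68 ± 0.18 (SE, limma adjusted p = 7.18e-05) was the largest fall of any receptor. In H146 it measured 4.40, 4.14 and 3.79 TPM untreated and 5.28, 6.30, 1.09 and 1.60 TPM treated, with 2 treated libraries above and 2 below all untreated ones, and did not pass (-0.36, limma adjusted p = 0.519). The other gene of that subfamily, *NR2E1* (TLX), a neural stem cell factor, went in H146 from 0.0514 to 0.0935 TPM to 0.856 to 1.18 TPM, below the filter.

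*NR2F1* (COUP-TFI, chr5:93583222-93594611, plus strand), a regulator of neural development, measured 0.889, 1.56 and 0.854 TPM in untreated H82 and 10.3, 81.2 and 14.6 TPM in treated H82 (log2 fold change 3.55 ± 0.70, SE, limma adjusted p = 0.00441). Replicate 2 was the highest by far, and without it the log2 fold change was 2.67 ± 0.28 (limma adjusted p = 0.00118). In H146 *NR2F1* was 411, 595 and 373 TPM untreated and 603, 547, 480 and 556 TPM treated, which overlapped and did not pass. The 3 treated H82 values equal 2.23%, 17.7% and 3.18% of the untreated H146 mean of *NR2F1*. The summed 41 H146 genes were at 0.751%, 3.52% and 0.272% in the same libraries, and a share of a sum need not hold for a single gene. Whether the *NR2F1* result has the same source as these 41 genes was not tested. *NR2F2* (COUP-TFII) rose in H82 from 7.27, 7.19 and 7.26 TPM to 12.8, 28.6 and 30.1 TPM (1.5 ± 0.32, limma adjusted p = 0.0061), without overlap. In H146 it measured 0.403, 0.654 and 1.18 TPM untreated and 5.65, 3.69, 1.98 and 1.12 TPM treated (1.13 ± 0.38, limma adjusted p = 0.0387), where treated replicate 4 lay within the untreated range. That call was lost with median-of-ratios scaling (limma adjusted p = 0.0734) and without any 1 of the untreated replicates or treated replicate 1 or 2. *NR2F6*, the most abundant COUP-related gene of H82, averaged 74.2 and 86.6 TPM there and rose in H146 from 39.1 ± 4.11 to 64.8 ± 11 TPM (0.71, limma adjusted p = 0.00668).

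Of the testicular receptors and the germ cell factor, *NR2C2* and *NR6A1* passed with opposite signs in the lines. *NR2C2* (TR4) measured 35.2, 35.3 and 33 TPM in untreated H82 and 9.51, 8.01 and 10.4 TPM in treated H82 (log2 fold change -1.79 ± 0.15, SE, limma adjusted p = 0.000219). H146 showed a rise from 9.35 ± 2.87 (SD, n = 3) to 15.2 ± 1.48 TPM (SD, n = 4, 0.68, limma adjusted p = 0.0254), a call lost with median-of-ratios scaling (0.46, limma adjusted p = 0.0786) and without treated replicate 3 or untreated replicate 1 or 3. The lines differed by 2.47 ± 0.27 (limma adjusted p = 1.15e-05). The antisense mitochondrial ribosomal protein gene *MRPS25* had the same pair of signs (-0.51 and 0.72, both passing), and its part in *NR2C2* was not tested. *NR6A1* (GCNF), which silences pluripotency genes, measured 27.3, 27 and 26.4 TPM in untreated and 5.23, 6.78 and 7.47 TPM in treated H82 (-1.91 ± 0.17, limma adjusted p = 0.000252). In H146 it rose from 11.3 ± 1.14 to 18 ± 2.41 TPM (0.63, limma adjusted p = 0.0105), and the difference of 2.53 ± 0.22 (limma adjusted p = 2.36e-06) had the smallest adjusted p of all receptors compared between the lines. *NR2C1* (TR2) averaged 21.1 and 12.7 TPM in H82 (-0.70, limma adjusted p = 0.00868, or 0.0783 with median-of-ratios scaling) and 17.3 and 13.8 TPM in H146, where it did not pass, and the difference between lines did not pass (0.39 ± 0.21, limma adjusted p = 0.119).

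Steroid receptors were few. *NR3C1*, the glucocorticoid receptor, measured 5.12, 4.49 and 4.17 TPM in untreated H146 and 10.2, 12.1, 11.8 and 12.9 TPM in treated H146 (log2 fold change 1.19 ± 0.15, SE, limma adjusted p = 0.000473). The groups were well apart. In H82 it averaged 10.0 and 7.60 TPM with overlapping groups and did not pass, and the lines differed by 1.57 ± 0.27 (limma adjusted p = 0.000374). The mineralocorticoid receptor *NR3C2* was below the filter in both lines, and in H82 measured 0 to 0.232 TPM untreated and 0.521 to 0.904 TPM treated. The progesterone receptor *PGR* did not exceed 0.339 TPM in any library. The estrogen receptor *ESR2* fell in H82 from 3.76 ± 0.178 to 2.10 ± 0.112 TPM (SD, n = 3, -0.62, limma adjusted p = 0.0204), a call lost with median-of-ratios scaling (limma adjusted p = 0.105) and without any 1 library other than treated replicate 1. *ESR1* was at 0.468 to 0.562 TPM untreated and 0.172 to 0.184 TPM treated in H82, below the filter and not overlapping.

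Of 13 glucocorticoid target genes, 12 were tested in H146, with 6 higher and 2 lower, and their median of 0.42 lay above the 0.25 of all genes, of which 32.5% rose and 15.5% fell. *SGK1*, a kinase that controls sodium transport, rose from 3.60 ± 0.519 (SD, n = 3) to 24.8 ± 6.62 TPM (SD, n = 4, log2 fold change 2.46), followed by *MT2A* (72.1 to 123 TPM, 0.76). *CDKN1C* (17.3 to 8.73 TPM, -0.92) and *ZBTB16* (1.47 to 0.457 TPM, -0.78) fell. The glucocorticoid-induced leucine zipper gene *TSC22D3* rose in H146 from 3.47 to 6.85 TPM and fell in H82 from 29 to 14.3 TPM, and neither call held with median-of-ratios scaling (0.56, limma adjusted p = 0.104, and -0.86, limma adjusted p = 0.136). In H82, 10 were tested, 4 fell, 1 rose and the median was -0.44, near that of all genes (45.5% fell and 13.1% rose). *MT1X* (10.5 to 3.46 TPM, -1.65) and *TSC22D3* (-1.14) had the largest falls and *CEBPD* the only rise that passed (0.977 to 9.37 TPM, 2.31), and without treated replicate 2 neither fall passed and 2 of the list fell.

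Of the estrogen-related receptors, orphan regulators of mitochondrial genes, *ESRRA* passed with opposite signs in the lines. In H82 *ESRRA* increased from 26 ± 5.78 to 44.2 ± 4.35 TPM (SD, n = 3, log2 fold change 0.76, limma adjusted p = 0.0137) and fell in H146 from 139 ± 13.2 (SD, n = 3) to 75.7 ± 11 TPM (SD, n = 4, -0.88, limma adjusted p = 0.00178). The difference of -1.64 ± 0.24 (SE) passed (limma adjusted p = 0.000121). Its antisense neighbor *TRMT112* rose in both lines (1.08 and 0.63). *ESRRG* measured 0.54, 0.615 and 0.32 TPM in untreated H146 and 2.14, 1.85, 3.85 and 4.33 TPM in treated H146 (1.39 ± 0.26, limma adjusted p = 0.00317), all treated values being higher. In H82 it averaged 14.0 and 18.1 TPM, with treated replicate 1 (10.3 TPM) below and the others above all untreated libraries. *ESRRB* was below the filter in both lines.

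The NR4A receptors are ligand-independent and known as immediate early genes. *NR4A1* (NUR77) measured 19, 17.3 and 19.6 TPM in untreated H82 and 5.57, 3.60 and 4.53 TPM in treated H82 (log2 fold change -1.83 ± 0.19, SE, limma adjusted p = 0.000388). It fell by less in H146, from 47.5 ± 1.97 (SD, n = 3) to 28.9 ± 4.11 TPM (SD, n = 4, -0.71, limma adjusted p = 0.00347), and H146 minus H82 passed (1.12 ± 0.21, limma adjusted p = 0.00071). *NR4A2* (NURR1), a dopaminergic neuron factor, measured 2.58, 4.52 and 2.05 TPM in untreated H146 and 17.5, 24.4, 14.9 and 13.2 TPM in treated H146 (2.20 ± 0.27, limma adjusted p = 0.000397), the largest rise of any receptor there. The paralogs *NR4A1* and *NR4A2* thus passed with opposite signs in H146. In H82 *NR4A2* averaged 8.69 and 5.43 TPM (-0.62, limma adjusted p = 0.0552), with all treated libraries below all untreated ones. *NR4A3* averaged 1.4 and 1 TPM in H82 and did not pass.

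The atypical receptors *NR0B1* (DAX1) and *NR0B2* (SHP) lack a DNA-binding domain and repress other receptors. *NR0B2* measured 4.01, 6.97 and 5.97 TPM in untreated H146 and 0.095, 0.276, 0.464 and 0.693 TPM in treated H146 (log2 fold change -2.26 ± 0.23, SE, limma adjusted p = 0.000193). That was the largest fall of any receptor in H146, with no overlap. In H82 it was at 0 in the untreated libraries and at 0.31, 1.92 and 0 TPM in treated replicates 1, 2 and 3, again highest in replicate 2. *NR0B1* averaged 1.60 and 0.981 TPM in H146, with treated replicates 1 and 2 (0.199 and 0.483 TPM) below and 3 and 4 (1.56 and 1.68 TPM) within the untreated range, and did not pass. *NR5A1* and *NR5A2*, the steroidogenic and liver receptors that NR0B proteins are known to oppose, stayed at or below 0.716 TPM throughout.

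Of the 14 receptors below the filter in H82, 7 had a group mean of at least 0.3 TPM, and the groups of 2 of these, *ESR1* and *NR3C2*, did not overlap, where 36.5% of all such genes did not overlap. An exact two-sided permutation test of 3 against 3 libraries cannot go below p = 0.1. Of the 15 in H146, 8 had such a mean and 5 did not overlap, against 28.7% of all such genes. These were *RORB*, *RXRA*, *NR2E1*, *ESRRB* (0.12 to 0.857 TPM) and *NR4A3* (0.124 to 0.859 TPM), all higher after treatment, each with an exact permutation p of 0.0571, the smallest that 3 against 4 libraries allow. For *NR4A3* treated replicate 2, at 1.99 TPM, was far above the other treated libraries at 0.38 to 0.561 TPM.

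Receptors act through shared coactivators and corepressors, and on the TPM scale the genes of these proteins were mostly lower in treated H82 and, where they passed, higher in treated H146. Of 22 listed, 21 were tested in each line. In H82, 14 fell and 1 rose, and the median was -0.96, where of all genes 45.5% fell and 13.1% rose with a median of -0.56. The corepressors *HR* (46 ± 7.10 to 6.11 ± 1.13 TPM, SD, n = 3, log2 fold change -2.72) and *LCOR* (20.7 to 3.83 TPM, -2.18) had the largest falls, and *PRMT1*, an arginine methyltransferase, was the gene that rose (241 to 364 TPM, 0.59). In H146, 10 rose and none fell (limma, adjusted p under 0.05, with 1 lower at an unadjusted p under 0.05). The median was 0.41, where 32.5% of all genes rose with a median of 0.25, and 3 fell and 7 rose with median-of-ratios scaling. The acetyltransferase *EP300* went from 8.05, 9.87 and 3.94 TPM to 23.6, 22.1, 38.6 and 39.7 TPM in H146 (1.98) and from 58.8, 53.3 and 54.8 TPM to 10.1, 20.2 and 23.1 TPM in H82 (-1.67). *NCOA2* rose in H146 from 12.9 to 38 TPM (1.52) and fell in H82 from 20.4 to 9.68 TPM (-1.03). In neither line did the groups overlap for *EP300*, and leaving out H82 treated replicate 2 left the same counts of 14 lower and 1 higher.

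**Figure D4:**
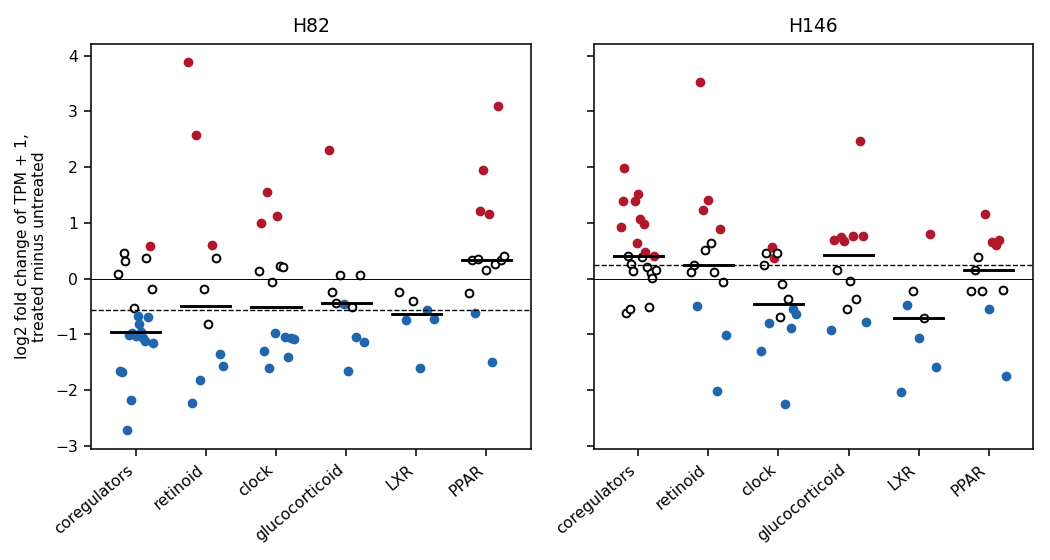
Log2 fold change of TPM + 1 (treated minus untreated, vertical axis) of the tested genes of 6 receptor-related lists in H82 and H146. Blue and red points passed an adjusted p of 0.05 as lower and higher, open points did not; solid bars are list medians and the dashed line is the median of all genes tested (-0.56 and 0.25; -0.31 and 0.04 with median-of-ratios scaling). The coregulators lie mostly below 0 in H82 (median -0.96) and above 0 in H146 (median 0.41).

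Of 27 receptors tested in both lines, 3 fell in both (*NR1D2*, *RORA* and *NR4A1*), 3 rose in both (*RARG*, *RXRB* and *NR2F2*) and 3 passed with opposite signs (*NR2C2*, *NR6A1* and *ESRRA*). A further 6 passed in H82 alone, 10 in H146 alone and 2 in neither. The same counts were not made over all genes, so these numbers have no background beside them. Passing in 1 line alone does not show a difference, so the difference of the log2 fold changes (H146 minus H82) was fitted over all 13 libraries. It passed for 24 of 36 receptors, 16 above and 8 below 0, while it passed for 60.2% of all genes tested, so the share among receptors was near the background. The largest differences were *NR2E3* (3.32 ± 0.53, SE) and *NR4A2* (2.82 ± 0.37) above 0 and *NR2F1* (-3.28 ± 0.73) and *NR0B2* (-2.90 ± 0.45) below 0. *RXRB*, *NR1D2*, *NR2F2*, *THRA*, *RARA* and *NR1H3* were among those whose difference did not pass, with values of 0.20 ± 0.16, 0.52 ± 0.30, -0.38 ± 0.55, -0.39 ± 0.20, -0.13 ± 0.21 and 0.07 ± 0.38.

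**Figure D5:**
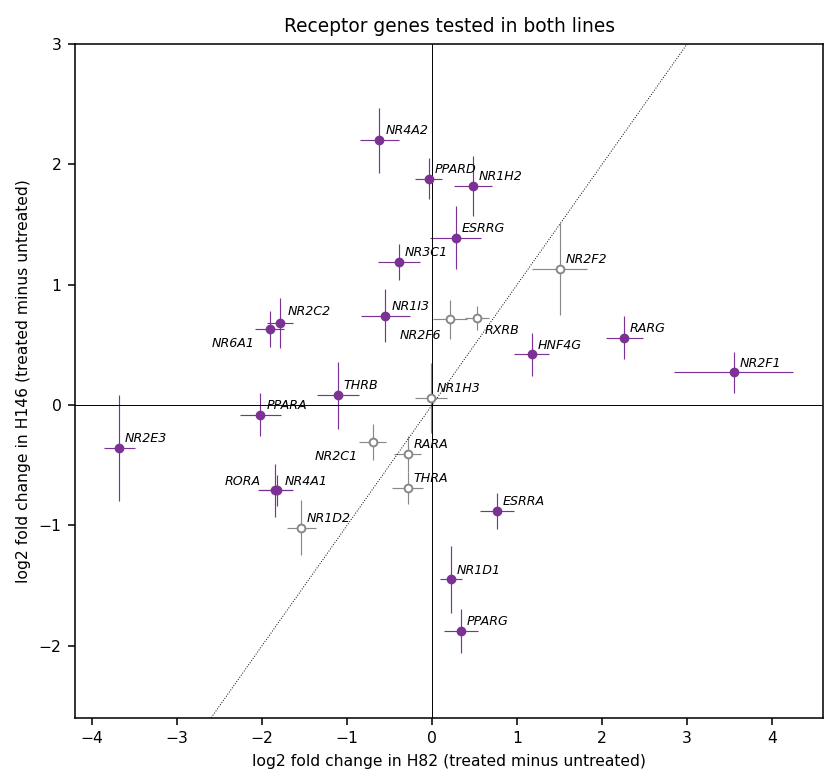
Log2 fold change in H82 (horizontal axis) against H146 (vertical axis) of the 27 receptors tested in both lines, with standard errors as bars and equal changes on the dotted line. Filled points differed between the lines at an adjusted p of 0.05 and open points did not; *NR2C2* and *NR6A1* lie at upper left and *ESRRA* at lower right.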

How the data were processed

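RNA was sequenced from 13 libraries of H82 and H146. The authors trimmed reads with Trim Galore 0.4.4, mapped them to hg38 with STAR and counted them per gene with a GENCODE annotation, and DESeq2 is also named in the submitters' notes. The deposited tables, 1 per line, hold TPM values. How these were derived, and whether strand was used, is not given in the sources used here. TPM keeps no depth, so no counting interval is given. Tests between the 2 tables used only within-line contrasts. Levels of H82 and H146 were also set side by side without a test, as for the 41 H146 genes, *NR2F1* and *ALDH1A1*. Genes that reached 1 TPM in 3 or more libraries of a line were fitted with limma 3.58.1 (R 4.3.3; lmFit, eBayes with trend) on log2(TPM + 1), so that fold changes of low genes are understated. P-values were adjusted by Benjamini-Hochberg over all genes of the fit (threshold 0.05), and the difference between lines was an interaction term. Receptors below the filter had exact permutation tests (scipy 1.17.1). The script was tested on simulated data. Every receptor at 1 TPM or more in 3 libraries of a line was named. Those past the threshold with an absolute log2 fold change of at least 1 have every library's value, and lists are illustrated by up to 2 rises and 2 falls per line (a few others, chosen after their values were seen, are named beside them). The receptors and the lists, written from general knowledge, were chosen with earlier results of these data known. Alternatives were a pseudocount of 0.1, no filter, median-of-ratios scaling, quantile normalization, a replicate block, no trend and leaving out each library. Gene coordinates are from GENCODE 44 and promoters from RefSeq (GRCh38.p14), where 41 of 46 receptors matched. Protein sequences were not used here. Single values of some list genes are not reported here, although the list counts include them.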

Additional observations from a re-analysis of the deposited data

Results flagged for a closer look

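Only the treated H146 libraries were screened for a single library set apart, over 31 receptors, and groups of 3 libraries were not. There was 1 case: *NR6A1* in treated H146, where replicate 2 measured 14.4 TPM and the others 19, 19.4 and 19.2 TPM (Dixon's test, where chance flags about 1 in 20 groups).

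The log2 fold change of H146 minus that of H82 passed its own test for 24 receptors. Above 0 were *NR2E3* (3.32), *NR4A2* (2.82), *NR6A1* (2.53), *NR2C2* (2.47), *PPARA* (1.94), *PPARD* (1.91), *NR3C1* (1.57), *RORB* (1.37), *NR1H2* (1.35), *NR1I3* (1.29), *THRB* (1.19), *RORA* (1.14), *ESRRG* (1.12), *NR4A1* (1.12), *NR4A3* (0.90) and *ESR2* (0.76). Below 0 were *NR2F1* (-3.28), *NR0B2* (-2.90), *PPARG* (-2.22), *RARG* (-1.70), *NR1D1* (-1.68), *ESRRA* (-1.64), *HNF4A* (-1.21) and *HNF4G* (-0.75). *RORB*, *NR4A3* and *ESR2* were below the expression filter in H146, and *HNF4A* and *NR0B2* in H82, so in those lines the change rests on values near or under 1 TPM. The differences of *THRB*, *HNF4G*, *ESRRG* and *NR4A3* were lost on leaving out at least 1 library.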

How the results depend on the processing

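In H82, 11 receptors rose with median-of-ratios scaling (19.5% of all genes) and 15 with quantile normalization, against 7 on the TPM scale (13.1% of all genes). Shares of all genes were not counted with quantile normalization, with the replicate block or on leaving out libraries other than H82 treated replicate 2. Receptor counts under those settings therefore have no background beside them. The median change over the receptors reversed in H82 with no filter (0.04) and quantile normalization (0.44), and in H146 with median-of-ratios scaling (-0.16) and quantile normalization (-0.20). Quantile normalization reversed 5 receptors in H82, *THRB* (0.02), *PPARD* (0.43), *NR1H3* (0.74), *ESR2* (0.41) and *NR4A3* (0.86), and 4 differences between the lines, *THRB* (-0.05), *NR1H3* (-0.94), *ESR2* (-0.37) and *NR4A3* (-0.22). The cause was not tested. With median-of-ratios scaling, falls in H82 went from 4 to 1 among LXR targets and from 4 to 2 among glucocorticoid targets, rises among coregulators from 1 to 3, and rises in H146 from 4 to 2 among PPAR targets. On leaving out 1 library, falls numbered 6 to 11 and rises 5 to 9 in H82, falls 6 to 11 and rises 8 to 11 in H146, and 20 or more receptors differed between the lines. Falls in H82 were 6 without untreated replicate 1 or 2. A pseudocount of 0.1 and eBayes without trend changed none of the calls.

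Replicate numbers did not pair the libraries: deviations of same-numbered libraries correlated at 0.027, 0.00753 and -0.0378 in H82 and -0.111, -0.0647 and 0.0108 in H146. With the replicate number as a block, 9 receptors fell and 7 rose in H82, 8 fell and 8 rose in H146 (treated replicate 4 has no partner and adds nothing there), and 21 differed between the lines. Depth is unknown from TPM and sets no stated limit on low receptors.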

Other observations

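In treated H146, replicates 1 and 2 lay apart from 3 and 4 for several receptors: *NR2E3* was 5.28 and 6.30 against 1.09 and 1.60 TPM, *NR2F2* 5.65 and 3.69 against 1.98 and 1.12 TPM, *RXRA* 0.924 and 0.886 against 2.52 and 2.29 TPM, and *NR0B1* 0.199 and 0.483 against 1.56 and 1.68 TPM. *RARRES3*, a retinoid-induced gene, was 2.45 and 2.71 against 0.0826 and 0.154 TPM. The labels give no batch for these libraries.

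Treated H146 replicate 2 held the highest level of several clock-controlled genes among the treated libraries. *NR1D1* was 45.3 TPM there against 17.4 to 24.5 TPM in the others, and *PER1* was 104 TPM against 28.3 to 35.1 TPM. *DBP* was 33.3 TPM against 13.9 to 15 TPM. *KLF9*, which glucocorticoids also induce, was 26.9 TPM against 6.26 to 12.3 TPM. These libraries and genes were picked after their values were seen.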
